A study of Mus musculus with 8 samples.

Results

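Mitochondria carry their own ribosome, whose proteins are all encoded in the nucleus, translated in the cytosol and imported. These are the mitochondrial ribosomal proteins, named Mrpl for the large subunit and Mrps for the small subunit. Together with ribosomal RNAs from mitochondrial DNA they build the machine that translates the membrane-embedded subunits of the respiratory chain and of ATP synthase. The large subunit forms the peptide bond and sits against the inner membrane, and the small subunit reads the messenger RNA. Photoreceptors and ganglion cells of the retina are known for a high demand on respiration.

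The genes were chosen by symbol alone (Mrpl or Mrps, a number and at most a letter a or b), and the mean across the 8 libraries had to reach 1 FPKM. FPKM is the number of sequenced fragments scaled to the length of the gene and the depth of the library. Among the 24860 symbols measured, 77 matched, and all 77 passed the minimum of 1 FPKM, so none was lost to it. The member nearest to the minimum was Mrpl14, at a mean of 1.72 FPKM, and no matching symbol lay under it. In ribosome structures 51 of the proteins belong to the large subunit and 25 to the small subunit. Mrps30 and Mrps18a are among the 51 despite their small-subunit names, and Mrps36 is now known as a part of the 2-oxoglutarate dehydrogenase complex. The letter rule leaves out Mrps18c, which is described below with subunits that carry other names.

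RNA was sequenced from mouse retina in 8 libraries, which the labels assign to retinal ganglion cells. In 4 libraries, AAV2-shCX36, the label names an adeno-associated virus (AAV2) and a hairpin RNA (sh) that targets connexin 36, which forms electrical synapses between retinal neurons. The other 4, AAV2-scramble, carry the same virus name with a scrambled sequence, so both groups share the virus. The design text speaks of different mice without saying which mouse or how many went into a library, and p-values measure only the spread between these libraries, which may be technical. Strain, age, any injury, the time after injection and the promoter of the hairpin are not given in the sources used here.

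The 9 ganglion cell markers summed to 1527 to 2713 FPKM in a library, and the 8 rod markers to 858 to 2050 FPKM, so the libraries held transcripts of other retinal cells too. No marker of the 12 cell type lists was at 0 in all libraries. Connexin 36 itself (Gjd2) had 38.7, 35.9, 17.4 and 18.2 FPKM in AAV2-scramble 1 to 4 and 17.0, 14.0, 14.6 and 16.6 FPKM in AAV2-shCX36 1 to 4. The groups did not overlap (two-sided exact permutation p = 0.0286, the smallest that 70 relabellings allow), and 2 of the 4 controls lay just above the treated libraries. The 6 bipolar cell markers were also highest in the 2 controls with the most Gjd2, at 363 and 366 FPKM in AAV2-scramble 1 and 2 against 74.4 to 170 FPKM in the other 6 libraries, and their part in the Gjd2 difference was not tested. In limma, a linear model fitted across all genes, its adjusted p was 0.148. The steps between the lowest FPKM of single-exon genes give only an approximate depth, and put roughly 62 fragments per library behind Mrpl14 and 1200 behind the median member. In such bulk samples, fewer cells of a type and less RNA per cell cannot be told apart.

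The transcripts of the mitochondrial ribosome were of middling abundance and lay close together. The median member had a mean of 13.5 FPKM, above 63.4% of the 12858 genes tested. Of the 77 members 64 lay between 5 and 25 FPKM, 7 lay below 5 and 6 above 25, and the highest stood 20.9 times above the lowest. The cytosolic ribosomal proteins had a median of 93.8 FPKM, 6.93 times that of the mitochondrial ones. The order of the members was held from library to library, with Spearman correlations of member levels between 0.935 and 0.982 over the 28 pairs of libraries, which share annotation and gene lengths.

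Mrpl42, a large-subunit protein without a bacterial counterpart, was the highest. It had 38.8, 29.4, 38.2 and 38.0 FPKM in AAV2-scramble 1 to 4 and 34.3, 40.3, 33.5 and 34.8 FPKM in AAV2-shCX36 1 to 4. The groups overlapped widely, and AAV2-scramble 2 was the lowest of all. Mrps21, the counterpart of bacterial S21 in the small subunit, followed with 33.8 ± 0.946 FPKM (SD, n = 4) in AAV2-scramble and 34.2 ± 3.00 in AAV2-shCX36. At the low end stood Mrpl14 with 1.80 ± 0.0844 against 1.65 ± 0.213 FPKM (AAV2-scramble against AAV2-shCX36, as in all pairs of values below), Mrpl15 and Mrpl1. Mrpl1 had 2.96 ± 0.334 against 3.10 ± 0.291 FPKM. All 3 low members are counterparts of bacterial large-subunit proteins, and none of these 5 genes was called.

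**Figure D1:**
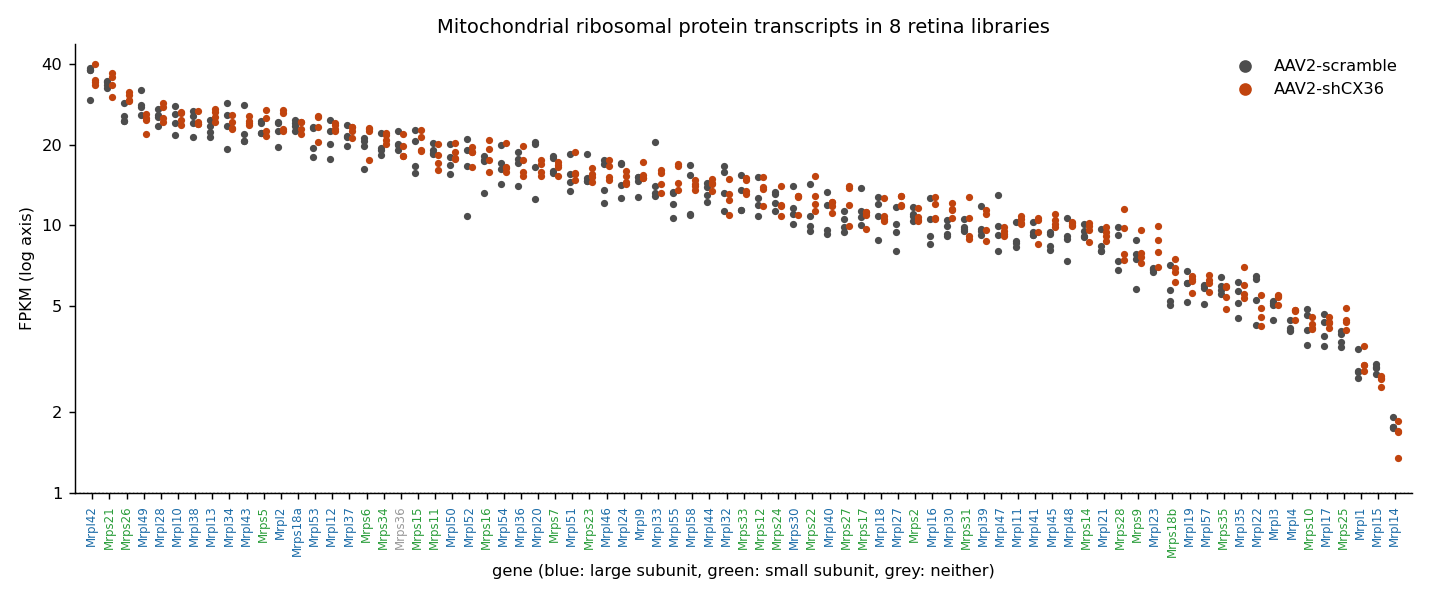
FPKM of the 77 genes in each library, on a log axis, ordered by the mean over 8 libraries. Grey points are AAV2-scramble and orange points AAV2-shCX36 libraries; the 2 colours overlap for most genes, from Mrpl42 at a mean of 35.9 FPKM down to Mrpl14 at 1.72.

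FPKM depends on the gene model, by its length and by what it shares. The GENCODE exon length of the members ran from 607 to 8631 bases, and longer models had lower FPKM (Spearman correlation -0.34 across the 77 genes, given as a description; the lengths the authors divided by were not used here). In 32 of the 77 genes an exon overlapped an exon of another gene, and without the strand setting of the counting, fragments there could belong to either. In bases the overlap was largest for Mrps25, where 4590 of 6576 exonic bases are shared with Nr2c2.

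The members are scattered over 17 chromosomes, with 11 on chromosome 11, 8 on chromosome 17 and 7 on chromosome 6. Several share a start region with a neighbour. In 17 members (22.1%) another protein-coding gene begins within 1000 bases upstream on the opposite strand, against 9.77% of the 11980 protein-coding genes tested that matched GENCODE. Among them Mrps12, which lies at the decoding site, starts opposite Sars2, the mitochondrial seryl-tRNA synthetase, and Mrpl49 starts opposite Fau, which encodes a cytosolic ribosomal protein. Mrps11 and Mrpl46, of the small and the large subunit, start so close together on chromosome 7 that their exons share 173 bases.

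The promoters share letters as well. RefSeq start regions (GRCm38.p6, 250 bases before to 50 after the start) matched 68 of the 77 symbols and were searched on both strands. CCGGAAG, the core of the ETS and GABP site, stood in 36.8% of the 68 members against 19.5% of 10232 tested genes with a start region. AAGATGGC, part of the YY1 site, stood in 17.6% against 5.25%, and GCGCANGCG, a part of the NRF1 site, in 23.5% against 15.2%. At least 1 of these 3 was present in 43 members, or 63.2%, against 34.5% of tested genes. GGGCGG, the SP1 box, was in 48.5% of members against 68.7%. Nuclear oxidative phosphorylation genes had the NRF1 letters in 29.0% and the ETS letters in 24.6% of their start regions, and cytosolic ribosomal protein genes in 12.7% and 40%. The median log2 difference between the groups (defined below) was 0.106 for the 25 members with the ETS letters and 0.051 for the 43 without. For YY1 it was -0.014 for the 12 with and 0.087 for the 56 without. For NRF1 it was 0.087 for the 16 with and 0.071 for the 52 without. For the SP1 box it was 0.089 for the 33 with and 0.076 for the 35 without. These matches are letters in a window and were not tested as binding sites.

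The start regions of the 2 most abundant members and of the 2 with the smallest p in the comparison show these arrangements. Capitals mark matches to any of the 4 letter strings on either strand, and each sequence runs 5′ to 3′ on the strand of the gene. Mrpl42 (chr10:95501900-95502199, minus strand) holds the YY1 letters and the SP1 box once each, Mrps21 (chr3:95871465-95871764, minus strand) the NRF1 and the ETS letters once each, Mrps26 (chr2:130563507-130563806, plus strand) the ETS letters and the SP1 box once each and 2 overlapping NRF1 matches, and Mrpl55 (chr11:59202236-59202535, plus strand) the SP1 box 3 times and none of the others.
Mrpl42: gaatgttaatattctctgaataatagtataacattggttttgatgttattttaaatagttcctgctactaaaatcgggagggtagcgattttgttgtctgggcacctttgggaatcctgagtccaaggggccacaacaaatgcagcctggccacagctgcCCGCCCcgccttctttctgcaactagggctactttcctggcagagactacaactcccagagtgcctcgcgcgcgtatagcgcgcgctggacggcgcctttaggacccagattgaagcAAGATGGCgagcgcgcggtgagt
Mrps21: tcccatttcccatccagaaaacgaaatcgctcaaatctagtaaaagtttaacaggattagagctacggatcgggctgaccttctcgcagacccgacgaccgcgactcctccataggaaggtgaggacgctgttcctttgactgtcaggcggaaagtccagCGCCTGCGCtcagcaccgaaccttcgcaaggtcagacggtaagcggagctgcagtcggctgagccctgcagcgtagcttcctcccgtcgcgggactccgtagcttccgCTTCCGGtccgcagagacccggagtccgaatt
Mrps26: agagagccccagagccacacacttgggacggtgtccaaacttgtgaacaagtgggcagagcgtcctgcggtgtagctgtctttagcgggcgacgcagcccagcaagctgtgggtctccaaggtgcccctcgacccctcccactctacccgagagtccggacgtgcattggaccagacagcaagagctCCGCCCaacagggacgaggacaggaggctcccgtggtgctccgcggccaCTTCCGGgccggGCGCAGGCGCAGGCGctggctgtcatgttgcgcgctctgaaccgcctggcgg
Mrpl55: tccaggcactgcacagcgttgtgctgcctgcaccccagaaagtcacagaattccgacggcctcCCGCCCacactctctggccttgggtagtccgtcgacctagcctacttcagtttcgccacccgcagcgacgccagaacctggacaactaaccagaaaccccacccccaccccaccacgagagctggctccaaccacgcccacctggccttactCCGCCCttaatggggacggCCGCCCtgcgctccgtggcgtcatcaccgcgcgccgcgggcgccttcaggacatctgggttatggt

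The comparison of AAV2-shCX36 with AAV2-scramble asks whether these transcripts differ when connexin 36 is targeted. None of the 77 members passed the threshold, a limma p under 0.05 after Benjamini-Hochberg correction across the 12858 genes, where 4.76% of all genes passed, 2.24% as higher and 2.52% as lower in AAV2-shCX36. At an unadjusted p under 0.05 there were 10 members, 9 higher and 1 lower, or 12.99% of them against 22.6% of all genes. The 4 AAV2-shCX36 values lay all above the 4 control values in 7 members and all below in 1, which is 10.4% together, where 15.9% of all genes did not overlap (8.85% higher, 7.05% lower). Counted in either direction, the share of members was below that of all genes in each of these 3 counts; the 7 higher members alone were 9.09% of the 77.

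The differences were small and leaned to one side. A log2 difference here is AAV2-shCX36 minus AAV2-scramble on log2(FPKM + 1), which understates the change of low genes such as Mrpl14. Its median over the members was 0.076, against 0.011 over all genes, and 57 members were above 0 and 20 below, or 74.0% above against 52.4% of all genes. The quartiles of the members were -0.0082 and 0.135, and those of all genes -0.123 and 0.135. As a ratio of group means the members ran from 0.861 to 1.26. The 95% confidence intervals of 74 of the 77 members lay within 0.5 log2 units on either side of 0. The other 3, Mrpl27, Mrpl55 and Mrpl52, had upper bounds of 0.547, 0.519 and 0.543. No interval reached a 2-fold change of FPKM + 1, the widest reach on that scale being 1.46-fold upward and 0.729-fold downward.

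**Figure D2:**
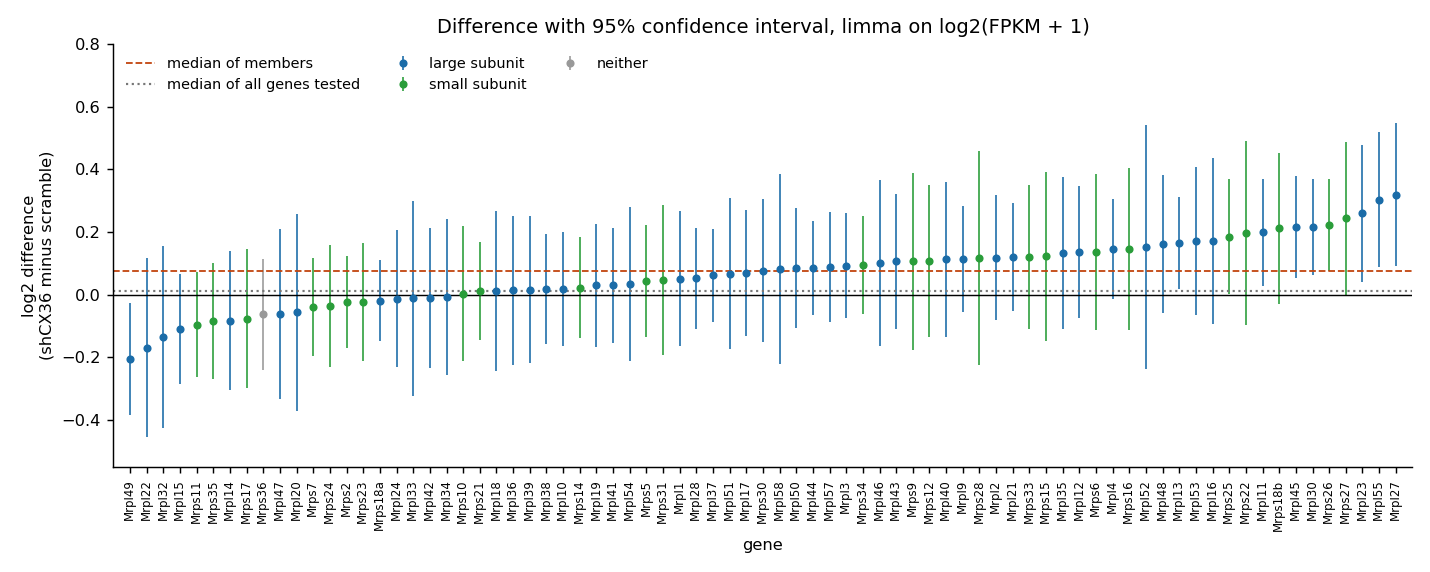
Log2 difference, AAV2-shCX36 minus AAV2-scramble, with its 95% confidence interval for each of the 77 genes, coloured by subunit; the dashed line is the median of the members (0.076) and the dotted line that of all genes tested (0.011). The points run from -0.21 (Mrpl49) to 0.32 (Mrpl27), and 10 intervals leave out 0.

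The lean was smaller without some libraries. Without AAV2-scramble 2 the median of the members was 0.042, against 0.022 for all genes. Without AAV2-scramble 1 and 2 together it was 0.043, against 0.040 for all genes, with 45 of 77 above 0. Without AAV2-scramble 3 and 4 it was 0.087, against -0.021 for all genes, and 9 members were called, all higher, where 26.8% of all genes were called in that fit. The 9 were Mrpl11, Mrpl12, Mrpl27, Mrpl30, Mrpl40, Mrpl45, Mrpl46, Mrpl58 and Mrps26. Without AAV2-shCX36 1 and 4 it was 0.050, against -0.0042 for all genes. These 2 libraries held the highest summed FPKM of the members, given below, and stood apart in the 5 lens markers, which summed to 119.8 and 258 FPKM there and to 0.619 to 16.1 FPKM in the other 6 libraries. The part of the lens transcripts in the member levels was not tested.

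AAV2-scramble 2 stood out among the 8 libraries for these genes. It held the lowest value in 28 of 77 members, or 36.4%, and for all genes in 24.8%. The summed FPKM of the members was 1102, 1009, 1097 and 1115 in AAV2-scramble 1 to 4 and 1145, 1108, 1116 and 1150 in AAV2-shCX36 1 to 4. The sums of the groups overlapped, with 1081 ± 48.6 against 1130 ± 21.0 FPKM (SD, n = 4), and AAV2-scramble 2 lay below every other library. As a share of all FPKM the members made up 0.391% to 0.396% in AAV2-shCX36 and 0.354% to 0.381% in AAV2-scramble.

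The same library had the most oligodendrocyte transcript, with the 6 markers of that list summing to 160 FPKM, against 52.0 in AAV2-scramble 1 and 10.6 to 11.95 in the other 6 libraries. Its 9 ganglion cell markers summed to 1527 FPKM, the lowest of all libraries, against 1977 in AAV2-scramble 1, 2378 and 2681 in AAV2-scramble 3 and 4, and 2517 to 2713 in AAV2-shCX36. Of these markers Nefh went the other way, at 62.3 FPKM in AAV2-scramble 2 and 38.5 to 49.7 FPKM in AAV2-shCX36. Among the oligodendrocyte markers Mog was at 0 in AAV2-scramble 4 and in all AAV2-shCX36 libraries. The 6 microglia markers summed to 424 and 425 FPKM in AAV2-scramble 1 and 2, and to 90.4 to 207 FPKM in the other 6 libraries. The part of these cell type differences in the member levels was not tested.

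The 2 subunits gave similar values. Of the 51 large-subunit genes 39 were above 0 and 12 below, with a median log2 difference of 0.076, and of the 25 small-subunit genes 18 were above and 7 below, with a median of 0.095. Summed FPKM of the large subunit was 714 ± 40.6 against 745 ± 12.9, and of the small subunit 347 ± 8.53 against 365 ± 8.51, and both pairs of groups overlapped. The ratio of large to small was 2.06 ± 0.0855 against 2.04 ± 0.0296. By ancestry, 47 genes have a relative among bacterial ribosomal proteins, including both S18 relatives Mrps18a and Mrps18b. Their median was 0.051 with 32 above 0. The 29 without such a relative had a median of 0.085 with 25 above 0. None of these splits was tested as a difference.

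**Figure D3:**
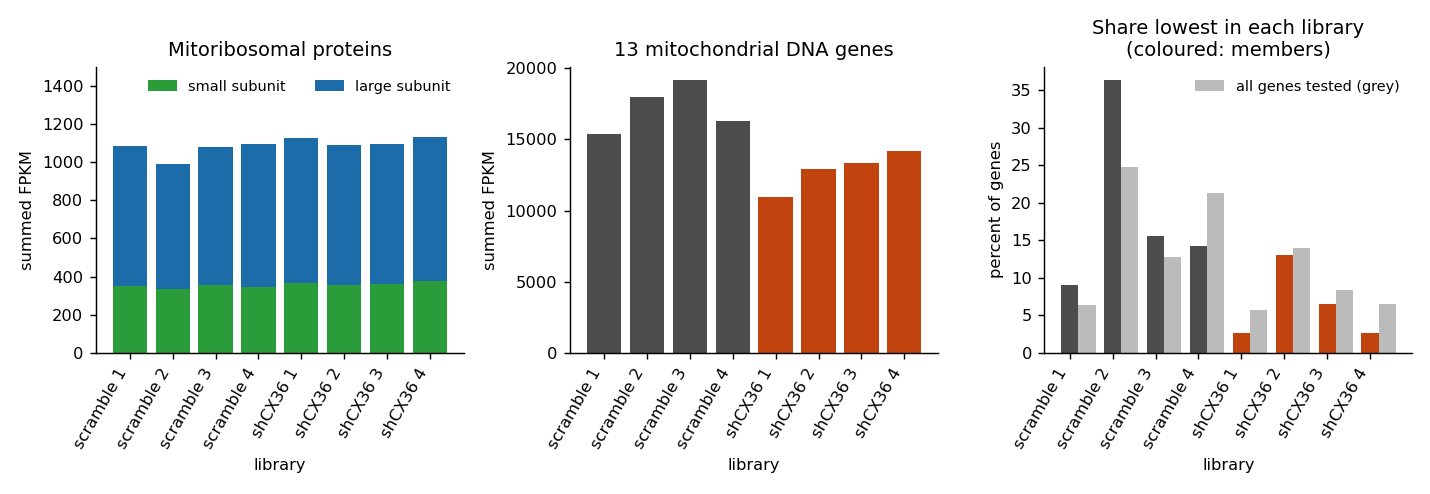
Left, summed FPKM of small-subunit (green) and large-subunit (blue) genes in each library; middle, summed FPKM of the 13 protein genes of mitochondrial DNA; right, the percent of the 77 members (coloured) and of all genes tested (light grey) whose lowest value is in that library. Member sums, with Mrps36 included, run from 1009 to 1150 FPKM, while the mitochondrial DNA genes are lower in all 4 AAV2-shCX36 libraries, and AAV2-scramble 2 holds the lowest value of 36.4% of members.

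Single members with the smallest p were mostly large-subunit genes, which are also 51 of the 77 members. Mrps26, a small-subunit protein found only in mitochondria (chr2:130563742-130568695, plus strand), had 24.5, 25.6, 24.5 and 28.6 FPKM in AAV2-scramble 1 to 4 and 30.8, 29.4, 29.2 and 31.6 FPKM in AAV2-shCX36 1 to 4. All treated libraries lay above all controls, by less than 1 FPKM at the closest. Its log2 difference was 0.22 ± 0.065 (SE, limma adjusted p = 0.0888), the smallest adjusted p of the 77, and it reached the threshold when AAV2-scramble 4 was left out (limma adjusted p = 0.0292). Over all alternatives its limma adjusted p ran from 0.0213, without AAV2-scramble 3 and 4, to 0.413, without AAV2-shCX36 1 and 4.

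Mrpl27, a relative of bacterial L27, whose tail reaches the peptidyl transferase centre, had the largest difference. Its values were 10.1, 8.0, 9.49 and 11.7 FPKM in AAV2-scramble and 11.97, 11.8, 12.9 and 12.9 FPKM in AAV2-shCX36, libraries 1 to 4 in order. The lowest treated library exceeded the highest control narrowly, and AAV2-scramble 2 was again the lowest. Its log2 difference was 0.32 ± 0.10 (limma adjusted p = 0.111), and 0.40 (adjusted p = 0.0329) without AAV2-scramble 4. Over all alternatives its limma adjusted p ran from 0.0177 to 0.375, in the same 2 settings as for Mrps26.

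Mrpl55, a relative of bacterial L31, had 13.3, 10.7, 12 and 13.2 FPKM in the controls and 14.4, 13.6, 16.7 and 17.0 FPKM in AAV2-shCX36. AAV2-shCX36 3 and 4 carried most of this gap (log2 difference 0.30 ± 0.096, limma adjusted p = 0.110). Mrpl30, a relative of bacterial L30, had 9.69 ± 0.623 against 11.4 ± 0.603 FPKM, with no overlap (log2 difference 0.22, limma adjusted p = 0.111).

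Around the exit of the nascent chain, Mrpl45, which anchors the large subunit to the inner membrane, had 8.34, 8.10, 9.46 and 9.30 FPKM in the controls and 9.88, 11.04, 10.5 and 10.1 FPKM in AAV2-shCX36. These values did not overlap (log2 difference 0.22 ± 0.072, limma adjusted p = 0.126). Mrpl23, a tunnel-exit protein, had controls within 6.67 to 6.94 FPKM and 9.97, 7.0, 8.80 and 7.95 FPKM in AAV2-shCX36. AAV2-shCX36 2 lay barely above the controls (log2 difference 0.26 ± 0.097, limma adjusted p = 0.161). Their neighbours at the tunnel, Mrpl22 and Mrpl24, had log2 differences of -0.17 and -0.013 (limma adjusted p = 0.458 and 0.954). These 4 named genes did not share a sign.

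The stalk, to which the elongation factors dock, is built of Mrpl10, Mrpl11 and Mrpl12. Mrpl11 had 8.72, 8.29, 10.3 and 8.58 FPKM in the controls and 10.8, 10.2, 10.1 and 10.5 FPKM in AAV2-shCX36. AAV2-scramble 3 lay among the treated libraries, and the log2 difference was 0.20 ± 0.076 (limma adjusted p = 0.165). Mrpl12, which also binds the mitochondrial RNA polymerase, had 17.8, 20.2, 24.7 and 22.6 FPKM in the controls and 22.9, 24.1, 22.6 and 23.8 FPKM in AAV2-shCX36. The controls alone covered a wider range than the treated libraries, and the groups overlapped (log2 difference 0.14 ± 0.093, limma adjusted p = 0.421). Its sign turned to -0.016 without AAV2-scramble 1 and 2. Mrpl10 had 25.05 ± 2.66 against 25.3 ± 1.34 FPKM, a log2 difference of 0.018, which turned to -0.042 without AAV2-scramble 1 and 2.

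Of the 20 members below 0, Mrpl49 was the single one with an unadjusted p under 0.05. It had the lowest log2 difference, -0.21 ± 0.079 (limma adjusted p = 0.170), with 28.1, 25.98, 27.7 and 32.1 FPKM in the controls and 24.9, 21.97, 25.2 and 26.1 FPKM in AAV2-shCX36. The groups overlapped only at AAV2-scramble 2 and AAV2-shCX36 4. Mrpl15 was the single member with all treated libraries below all controls, at 3.04, 2.79, 2.95 and 2.94 FPKM against 2.67, 2.49, 2.73 and 2.68 FPKM, and its log2 difference was only -0.11 (limma adjusted p = 0.430). Mrpl32, whose maturation by a mitochondrial protease is needed for ribosome assembly, had 14.3 ± 2.47 against 12.8 ± 1.62 FPKM (log2 difference -0.14, limma adjusted p = 0.563).

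**Figure D4:**
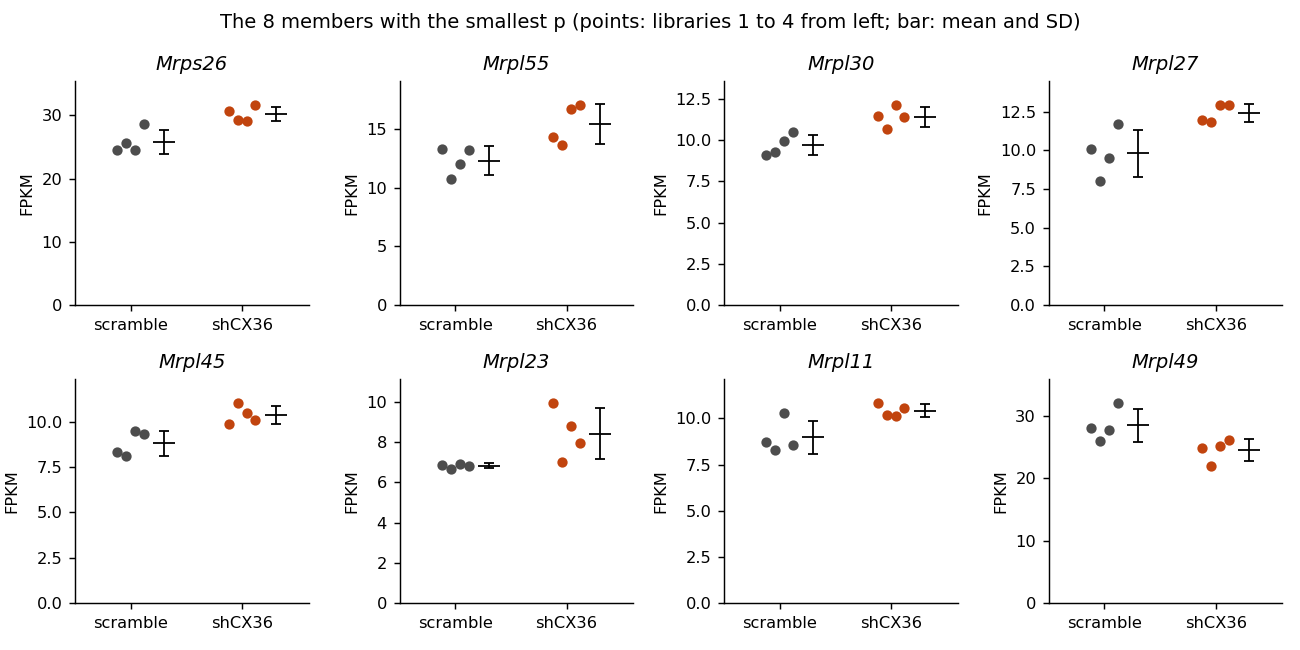
FPKM in each library (points, libraries 1 to 4 from left in each group) with mean and SD (n = 4) for the 8 genes with the smallest p. In Mrps26, Mrpl55, Mrpl30, Mrpl27, Mrpl45 and Mrpl23 all orange AAV2-shCX36 points lie above the grey AAV2-scramble points; in Mrpl49 most lie below, and all axes start at 0.

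Mrps27, an RNA-binding protein of the small subunit, had 9.82, 9.48, 11.3 and 10.5 FPKM in the controls and 14.1, 13.8, 9.94 and 11.97 FPKM in AAV2-shCX36. AAV2-shCX36 3 fell among the controls (log2 difference 0.24 ± 0.11, limma adjusted p = 0.223). Mrps25 had 3.79 ± 0.232 against 4.44 ± 0.353 FPKM without overlap (log2 difference 0.18, limma adjusted p = 0.220), and most of its exonic sequence is shared with Nr2c2, as given above. Mrps12 had 12.6 ± 1.84 against 13.6 ± 1.37 FPKM (log2 difference 0.11, limma adjusted p = 0.587).

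The controls varied more than the treated libraries. The SD of log2(FPKM + 1) was larger among the 4 controls in 55 of 77 members, with medians of 0.149 in AAV2-scramble and 0.0988 in AAV2-shCX36. All genes tested had medians of 0.164 and 0.0995, so the members shared this with the table as a whole.

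Of the 6 subunits measured under other names none was called, with a median log2 difference of 0.054. Dap3, the GTP-binding protein of the small subunit, had 12.1, 10.5, 12.8 and 12 FPKM in the controls and 13.1, 14.0, 13.2 and 13.6 FPKM in AAV2-shCX36, which did not overlap (log2 difference 0.17, limma adjusted p = 0.184). Mrps18c and Chchd1 had log2 differences of -0.068 and -0.25, and Ptcd3, Aurkaip1 and Gadd45gip1 of 0.044, 0.13 and 0.065.

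The factors that assemble and serve the ribosome also showed few calls. None of 26 assembly factors was called (median log2 difference -0.026), and none of 15 translation and insertion factors (median 0.059). Rbfa, which binds the maturing small subunit, had 9.20 ± 0.344 against 10.9 ± 0.507 FPKM (log2 difference 0.22, limma adjusted p = 0.0825). Lrpprc, which stabilises mitochondrial messenger RNAs, had 17.2 ± 1.16 against 20.03 ± 1.27 FPKM (log2 difference 0.20, limma adjusted p = 0.132). The elongation factor Tufm had 23.8 ± 2.20 against 25.1 ± 1.63 FPKM, with overlap.

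The 15 mitochondrial tRNA synthetases tested had a median log2 difference of 0.045. Of them 1 was called higher and none lower, against 2.24% and 2.52% of all genes. The 1 was Aars2, which charges alanine tRNA, at 9.09, 9.43, 8.76 and 10.4 FPKM in the controls and 11.9, 11.9, 12.01 and 11.6 FPKM in AAV2-shCX36. The groups did not overlap (log2 difference 0.31 ± 0.065, limma adjusted p = 0.0331). That call held with AAV2-scramble 4 left out (limma adjusted p = 0.0204) and was lost, at a limma adjusted p of up to 0.107, when any other single library was left out. Sars2, which shares its start region with Mrps12, had a log2 difference of 0.12 (limma adjusted p = 0.483).

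The transcripts that this ribosome translates were lower in AAV2-shCX36. All 13 protein genes of mitochondrial DNA had a log2 difference below 0, with a median of -0.51. Of them 7 were called lower and none higher, against 2.52% and 2.24% of all genes. In 12 all treated libraries lay below all controls, against 7.05% of all genes. Their summed FPKM was 15389, 17981, 19157 and 16327 in AAV2-scramble 1 to 4 and 10960, 12918, 13338 and 14209 in AAV2-shCX36 1 to 4, with every treated library below every control. The 7 were ND2, ND3, ND5 and ND6 of complex I, COX2 of complex IV, and ATP6 and ATP8 of ATP synthase. ND6, encoded on the other strand from the rest, had 97.8, 102, 104 and 97.4 FPKM in the controls and 67.2, 63.5, 72.0 and 59.5 FPKM in AAV2-shCX36 (log2 difference -0.61 ± 0.067, limma adjusted p = 0.0024). It was the single gene of the 7 to stay called with any 1 library left out. ND3 had the largest log2 difference, -0.82 ± 0.17 (limma adjusted p = 0.031), with 24.0 ± 3.62 against 13.3 ± 3.37 FPKM. The count of 7 was 1 to 3 when any 1 AAV2-shCX36 library, AAV2-scramble 2 or AAV2-scramble 3 was left out. The rod, cone and Müller glia marker lists were also lower in all 4 AAV2-shCX36 libraries, at 858 to 1141 against 1429 to 2050, 1568 to 2427 against 2714 to 4150, and 253 to 413 against 457 to 799 FPKM. Their part in the fall of these genes was not tested.

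Of 80 nuclear oxidative phosphorylation subunits 1 was called lower, against 2.52% of all genes, and none higher, with a median of 0.0098. The 1 was Cox4i2, an alternative subunit of cytochrome c oxidase, at 14.0 ± 1.40 against 9.75 ± 1.04 FPKM (log2 difference -0.48 ± 0.095, limma adjusted p = 0.0258). Its call held without AAV2-scramble 3 or AAV2-scramble 4 (limma adjusted p = 0.0494 and 0.0247) and was lost, at up to 0.0706, without any other single library. None of 74 cytosolic ribosomal proteins was called, and their median was -0.025. Whether the mitochondrial ribosomal proteins differ from these lists was not tested.

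**Figure D5:**
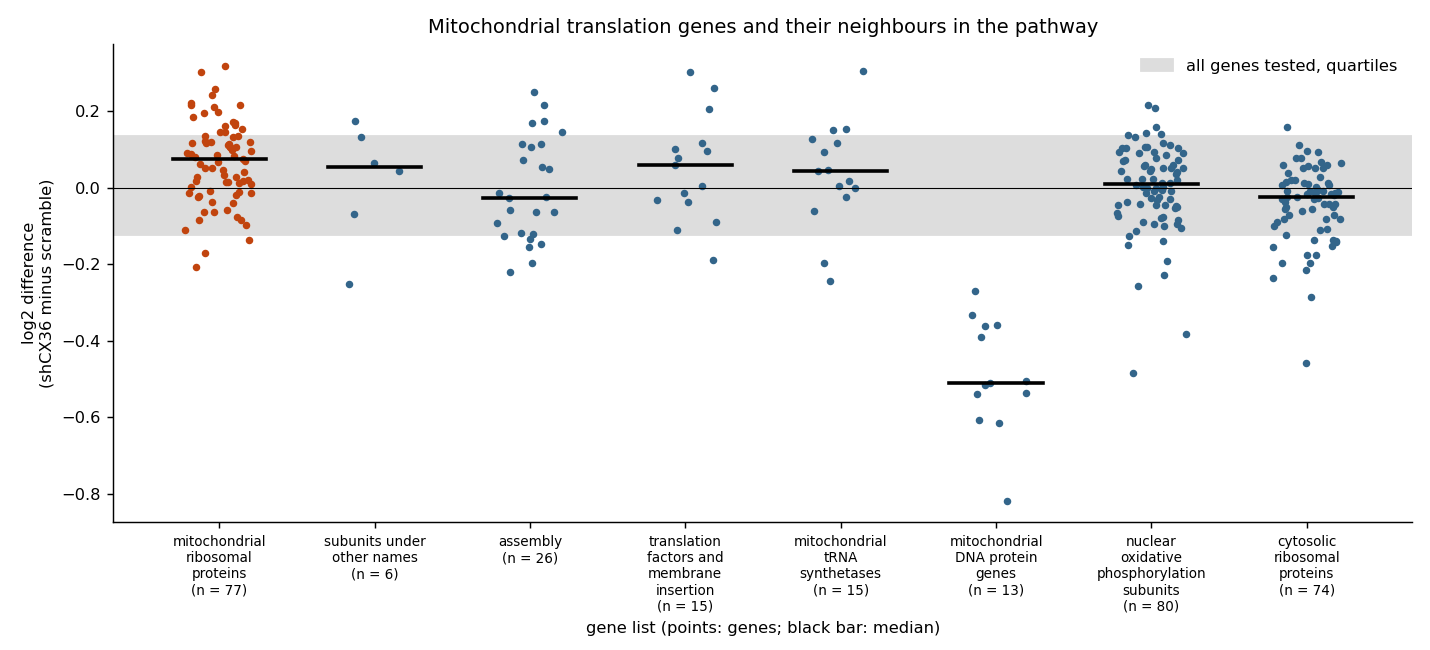
Log2 difference, AAV2-shCX36 minus AAV2-scramble, of each gene (points) and the median (black bar) of the mitochondrial ribosomal proteins and 7 related lists; the grey band spans the quartiles of all genes tested. Of the 8 lists drawn, only the 13 mitochondrial DNA genes lie wholly below 0, with a median of -0.51, and the other medians lie between -0.026 and 0.076.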

How the data were processed

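The values are FPKM, deposited by the authors for 24860 gene symbols in 8 libraries of mouse retina RNA. The submitters' processing notes name fastp, HISAT2, HTSeq, R 3.2.0 and DESeq2 and the builds GRCm38 and mm10; gene lengths, annotation and strand setting are not given in the sources used here. Without counts, no count model was run. Groups and replicate numbers came from sample titles, and all value columns matched a sample.

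The 12858 genes whose mean across libraries reached 1 FPKM were tested on log2(FPKM + 1) with limma 3.58.1 (trend, R 4.3.3, two-sided, Benjamini-Hochberg adjusted p under 0.05). The fit was also run on simulated data, in which genes varied independently with the same spread in both groups. The spread of these libraries was unequal, so the simulation cannot show how often a call is false here. Members, lists and tests were chosen with earlier results of these data known. Members named are the 8 with the smallest p, the 4 largest and 4 smallest differences, the 4 highest and 4 lowest levels, the stalk proteins and Mrpl45, plus called genes of the related lists. Mrps12, Mrpl52 and the other genes named outside this rule were chosen after their values were seen. Positions are from GENCODE vM21 (GRCm38) and start regions from RefSeq. Alternatives covered pseudocount, scaling, filter, variance model, weighting of libraries, a block for replicate number, the threshold, and omitted libraries. Tables and figures used Python 3.11.15, pandas 2.3.3 and matplotlib 3.10.9.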

Additional observations from a re-analysis of the deposited data

Results flagged for a closer look

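Among the 19 named members and 4 summed levels, 46 groups of 4 libraries were checked for a library far from the other 3, where chance gives about 1 in 20 groups. For 3 values the gap to the nearest other library exceeded Dixon's limit. Mrpl42 was at 29.4 FPKM in AAV2-scramble 2, with the other controls at 38.0 to 38.8 FPKM. The summed FPKM of the members was 1009 in AAV2-scramble 2, with the other controls at 1097 to 1115. Mrpl14 was at 1.92 FPKM in AAV2-scramble 1, with the other controls at 1.75 to 1.76 FPKM.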

How the results depend on the processing

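No member was called in the fit as reported, and the count under the alternatives was 0 except as follows. It was 1 with library weights (Mrps26, limma adjusted p = 0.050), where 5.64% of all genes were called, and 1 at an adjusted p under 0.1. It was 9 without AAV2-scramble 3 and 4, where 26.8% of all genes were called. With single libraries left out it ran from 0 to 2, the 2 being without AAV2-scramble 4, where 9.04% of all genes were called. The median log2 difference of the members stayed above 0 in every setting run, from 0.042 to 0.090, but the median of all genes moved too. Without AAV2-scramble 1 and 2 the members were at 0.043 and all genes at 0.040, so the lean over all genes was nearly gone. Without AAV2-scramble 2 the members were at 0.042 and all genes at 0.022. Over the related lists there were 9 calls, where 4.76% of all genes were called. The calls became 2 with no filter, where 1.25% of all genes were called, and 15 at an adjusted p under 0.1. They became 21 without AAV2-scramble 3 and 4, where 26.8% of all genes were called, and 1 without AAV2-shCX36 1 and 4, where 0.824% were. Without number 2 in either group (chosen after seeing the data) there was 1, where 1.05% of all genes were called. With single libraries left out there were 1 to 11, where 1.33% to 9.04% of all genes were called. With the replicate number as a replicate block 0 members and 2 genes of the related lists were called, and 164 of 12858 genes in place of 612. Deviations of same-numbered libraries from their group means had correlations of 0.13, -0.30, 0.23 and -0.27. The deviations within a group depend on each other, so these values cannot show whether the numbers mark a pairing. The labels do not say.

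Of 19 named members 4 changed sign in some settings. Mrps21 was at -0.021 with quantile normalization, -0.016 without AAV2-shCX36 1 and 4, -0.018 without number 2, and -0.028 to 0.068 with single libraries left out. Mrpl42 was at 0.074 without AAV2-scramble 3 and 4, 0.033 without AAV2-shCX36 1 and 4, and -0.10 to 0.027 with single libraries left out. Mrpl10 was at -0.042 without AAV2-scramble 1 and 2, -0.066 without number 2, and -0.044 to 0.071 with single libraries left out. Mrpl12 was at -0.016 without AAV2-scramble 1 and 2. The cause of these changes of sign was not tested. The log2 difference of Gjd2 ran from -0.88 to -0.51 with single libraries left out, and its exact permutation p was 0.114 to 0.143 without any 1 AAV2-shCX36 library. The groups still did not overlap in those settings, the lowest control being at 17.4 and the highest treated library at 17.0 FPKM. Without deposited counts no counting interval is given, so depth limits the lowest members, such as Mrpl14, in a way that is known only approximately.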
